A study of Mus musculus with 4 samples.

Results

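The genes described here set the pace of the G1 phase of the cell cycle in bone marrow progenitors: the D cyclins Ccnd1, Ccnd2 and Ccnd3, the kinases Cdk4 and Cdk6 that they activate, the Cdk inhibitors Cdkn1b, Cdkn2c and Cdkn2d, and the pocket proteins Rb1 and Rbl2. They were chosen by name, and all 10 were found among the 47561 gene symbols of the deposited tables. RNA was sequenced from LSK cells, a bone marrow fraction sorted as negative for lineage markers and positive for Sca-1 and c-Kit, in which stem cells and multipotent progenitors are found. The 4 libraries came from 12-week-old C57BL/6 mice. Metrn cKO mice (n = 2) carried a floxed Metrn gene together with LysM, a driver of its deletion at the Lyz2 locus. This driver is active mainly in macrophages, monocytes and neutrophils. Metrn f/f mice (n = 2) carried the floxed gene without the LysM driver and are called wild type in the labels. The series is titled as a study of how Meteorin, the secreted product of Metrn, acts from macrophages on stem and progenitor cells.

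In G1, D cyclins accumulate when growth factors signal, bind Cdk4 or Cdk6, and the active kinases phosphorylate the pocket proteins, which frees E2F factors to switch on the genes of S phase. Ink4 proteins, among them the products of Cdkn2c and Cdkn2d, bind the kinases directly, whereas the p27Kip1 product of Cdkn1b acts mainly on cyclin complexes with Cdk2. In blood cell formation Cdk6 is known for its role in the exit of stem cells from quiescence, and D cyclin use differs between lineages. The p130 product of Rbl2 is the pocket protein of resting cells and acts in the DREAM repressor complex.

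The unit of the tables was taken as FPKM (a read count corrected for how long a transcript is and how deeply its library was sequenced), which allows genes to be compared per length. The FPKM of all genes summed to 562401 in Metrn cKO 1, 412955 in Metrn cKO 2, 392717 in Metrn f/f 1 and 671802 in Metrn f/f 2. Metrn itself had 42.3 and 36.7 FPKM in Metrn cKO and 29.3 and 66.3 FPKM in Metrn f/f. As the driver is active mainly in other cell types, the Metrn level is only a partial check of the labels. Transcripts of Lyz2 were nevertheless found in every library, at 2904 and 245 FPKM in Metrn cKO and 290 and 2406 FPKM in Metrn f/f. Whether Metrn was deleted in any of the sorted cells was not tested. Over all tested genes the libraries did not group by their labels: the median size of the log2 difference was 0.15 for Metrn cKO 2 against Metrn f/f 1 and 0.47 for Metrn cKO 1 against Metrn f/f 2, beside 0.49 between the Metrn cKO libraries and 0.75 between the Metrn f/f libraries. Whether the sorts or the labels have a part in this was not tested. Transcripts of mature blood cells set the libraries apart across genotypes, with Metrn cKO 1 and Metrn f/f 2 on the high side. The summed level of 10 neutrophil markers was 58466 and 2023 FPKM in Metrn cKO 1 and 2, and 2577 and 32574 FPKM in Metrn f/f 1 and 2. That of 10 B and plasma cell markers was 1064 and 73.1 FPKM in Metrn cKO, and 61.7 and 536 FPKM in Metrn f/f. All 10 markers of both lists were higher in Metrn cKO 1 than in Metrn cKO 2 and higher in Metrn f/f 2 than in Metrn f/f 1. The sums of 10 erythroid markers (15455 and 1600 FPKM in Metrn cKO, 1955 and 19471 FPKM in Metrn f/f) and of 10 macrophage markers (206 and 61.7 FPKM, against 53.4 and 1029 FPKM) had the same order, with 9 and 8 of their genes ordered so in both genotypes. The 8 T and NK cell markers summed to 181 and 145 FPKM in Metrn cKO and to 151 and 263 FPKM in Metrn f/f. Nkg7 alone had 170 and 144 FPKM in Metrn cKO and 149 and 248 FPKM in Metrn f/f, so these sums say little of the other markers. All 8 were higher in Metrn cKO 1 than in Metrn cKO 2 and higher in Metrn f/f 2 than in Metrn f/f 1. Over all tested genes, these differences had the same sign in both genotypes, in either direction, for 75.7%. Of the markers of these lists, Cd3e, Cd3g, Ncr1 and Ms4a1 were listed at 0 in Metrn cKO 2, Cd3d in Metrn f/f 1, and Marco in every library but Metrn f/f 2. The 6 megakaryocyte markers summed to 22.9 and 32.9 FPKM in Metrn cKO and 36.3 and 92.2 FPKM in Metrn f/f. The 8 LSK sort and stem cell markers summed to 341 and 771 FPKM in Metrn cKO and to 670 and 473 FPKM in Metrn f/f, and all 8 were above 0 in the 4 libraries. Kit, the gene of c-Kit, had 25.9 and 116 FPKM in Metrn cKO and 108 and 24.8 FPKM in Metrn f/f. Ly6a, the gene of Sca-1, had 48.4 and 38.2 FPKM in Metrn cKO and 37.2 and 83.2 FPKM in Metrn f/f. Within each genotype Kit and Ly6a thus had opposite orders. In sorted bulk cells, fewer cells of a type and less RNA per cell cannot be told apart.

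The 250 bases upstream of the transcript start are shown for 4 members, 1 for each pattern met below. Cdk4 was the most abundant member in 3 libraries, and Cdkn1b the steadiest member in the values as deposited. Ccnd3 and Rbl2 differed in opposite directions between mice of a genotype. The sequences are from RefSeq on GRCm38.p6, which held an entry for 7 of the 10 members, and Ccnd1, Ccnd2 and Rb1 had none. Capitals mark matches on either strand to the E2F core TTTNNCGC, the Myc-binding E-box CACGTG, the CHR element TTTGAA, the GC box GGGCGG and the CCAAT box CCAAT.
Cdk4 (chr10:127063285-127063534, + strand): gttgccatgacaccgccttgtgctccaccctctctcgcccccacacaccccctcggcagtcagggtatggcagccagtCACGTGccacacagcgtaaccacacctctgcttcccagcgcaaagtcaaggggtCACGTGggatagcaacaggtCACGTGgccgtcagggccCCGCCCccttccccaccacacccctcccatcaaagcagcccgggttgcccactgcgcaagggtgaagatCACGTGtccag
Ccnd3 (chr17:47504801-47505050, + strand): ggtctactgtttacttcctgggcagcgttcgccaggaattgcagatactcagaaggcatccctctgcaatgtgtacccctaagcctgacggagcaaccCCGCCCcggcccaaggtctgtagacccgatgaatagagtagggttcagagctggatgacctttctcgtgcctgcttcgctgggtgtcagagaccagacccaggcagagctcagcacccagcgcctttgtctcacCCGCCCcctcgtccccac
Rbl2 (chr8:91069807-91070056, + strand): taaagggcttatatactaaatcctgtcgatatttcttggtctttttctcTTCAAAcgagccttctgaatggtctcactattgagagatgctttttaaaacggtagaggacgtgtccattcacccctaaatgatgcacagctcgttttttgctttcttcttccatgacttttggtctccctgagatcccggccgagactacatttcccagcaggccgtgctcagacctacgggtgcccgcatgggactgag
Cdkn1b (chr6:134920151-134920400, + strand): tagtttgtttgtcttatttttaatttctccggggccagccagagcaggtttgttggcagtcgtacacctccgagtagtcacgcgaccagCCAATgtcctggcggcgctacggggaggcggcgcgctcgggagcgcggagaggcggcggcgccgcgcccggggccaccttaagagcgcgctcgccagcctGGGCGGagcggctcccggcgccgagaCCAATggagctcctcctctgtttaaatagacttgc
The Cdk4 window held 4 E-boxes, which begin 172, 118, 98 and 11 bases before the start, and 1 GC box. At least 1 E-box was found in 6.02% of the 32851 promoter windows in the table, and at least 4 in 7 windows (0.0213%). Cdk4 is a textbook target of Myc, and the level of Myc is given with the pathway below. The Ccnd3 window held 2 GC boxes, a motif of 32.7% of windows, and the Rbl2 window 1 CHR element, a motif of 16.0%. The Cdkn1b window held 2 CCAAT boxes, which 33.8% of windows had, and 1 GC box. No marked motif overlapped another in these 4 windows. The E2F core, present in 4.28% of windows, was not among the letters of these 4.

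D cyclins were led by Ccnd3 in every library. Ccnd3 had 352 and 81.9 FPKM in Metrn cKO 1 and 2, and 82.8 and 213 FPKM in Metrn f/f 1 and 2. The level was high in 1 mouse of each genotype, and the groups overlapped. Ccnd2, the D cyclin that answers to cytokine signals through Stat5 in blood cells, had 15.0 and 36.2 FPKM in Metrn cKO and 29.3 and 11.3 FPKM in Metrn f/f. It was low in the same 2 libraries in which Ccnd3 was high. Ccnd1, the least abundant D cyclin, had 9.98 and 10.3 FPKM in Metrn cKO and 7.79 and 4.74 FPKM in Metrn f/f. Ccnd1 was the only member for which each Metrn cKO library lay above each Metrn f/f library, as 829 of 13148 tested genes did (6.31%). With each library rescaled to the same sum, its groups overlapped, at 17.7 and 24.8 in Metrn cKO and 19.8 and 7.06 in Metrn f/f, and Cdkn2c was then the member whose groups stood apart, at 71.7 and 42.4 in Metrn cKO and 35.8 and 40.9 in Metrn f/f. With libraries scaled by the median of gene ratios the Ccnd1 groups stayed apart, at 10.8 and 9.11 in Metrn cKO and 7.23 and 5.33 in Metrn f/f. The share of all tested genes whose groups stood apart was counted only for the deposited values, not under these other scalings.

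**Figure D1:**
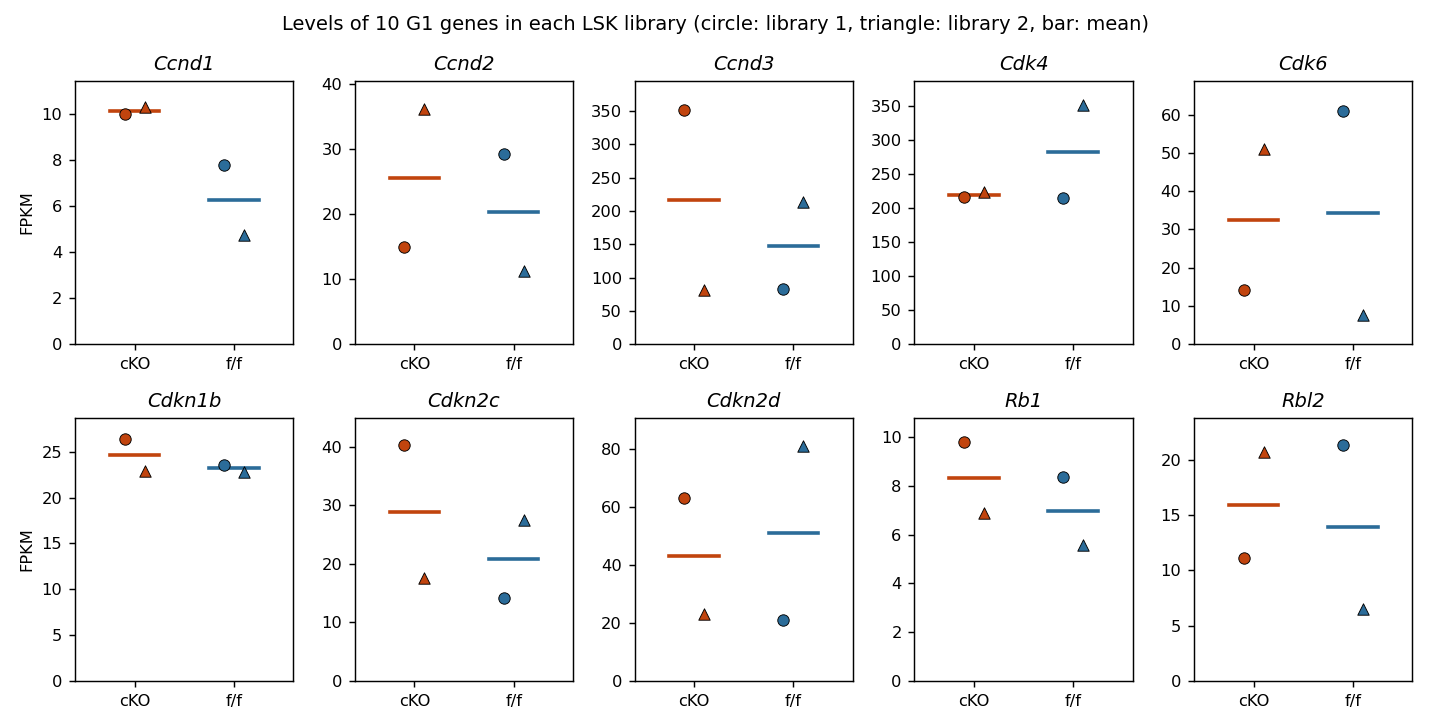
FPKM of the 10 genes (vertical axis, linear from 0) in Metrn cKO (left, orange) and Metrn f/f (right, blue), with a circle for mouse 1, a triangle for mouse 2 and a bar for the mean. Ccnd3, Cdkn2c and Cdkn2d are high in Metrn cKO 1 and Metrn f/f 2, Ccnd2, Cdk6 and Rbl2 are high in the other 2 libraries, and Cdkn1b lies between 22.8 and 26.4 FPKM in all 4.

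The kinases differed from each other in steadiness. Cdk4 had 216 and 223 FPKM in Metrn cKO and 214 and 351 FPKM in Metrn f/f, so that as deposited 3 libraries were close and Metrn f/f 2 was high. Under median-of-ratios scaling Metrn f/f 2 stayed the highest, at 394. With libraries rescaled to the same sum it did not, at 383 and 540 in Metrn cKO and 546 and 522 in Metrn f/f, where Metrn cKO 1 was the lowest. Cdk4 was the most abundant member in 3 libraries and came after Ccnd3 in Metrn cKO 1. Cdk6 had 14.1 and 51.0 FPKM in Metrn cKO and 61.0 and 7.63 FPKM in Metrn f/f. Its highest library exceeded its lowest by the widest ratio among the 10 genes. The summed FPKM of both kinases was 230 and 274 in Metrn cKO and 276 and 358 in Metrn f/f, with both Metrn cKO sums below both Metrn f/f sums. That order held under median-of-ratios scaling and was lost when libraries were rescaled to the same sum, at 408 and 663 in Metrn cKO and 702 and 534 in Metrn f/f.

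Of the inhibitors, Cdkn1b was as deposited the steadiest of the 10 genes. It had 26.4 and 22.9 FPKM in Metrn cKO and 23.6 and 22.8 FPKM in Metrn f/f. Its libraries spanned 1.16-fold. Rescaling to the same sum widened this, to 47.0 and 55.4 in Metrn cKO and 60.1 and 33.9 in Metrn f/f. Cdk4 then had a narrower span than Cdkn1b, from 383 in Metrn cKO 1 to 546 in Metrn f/f 1. The Ink4 genes varied much more. Cdkn2d, which encodes p19Ink4d, had 63.0 and 23.2 FPKM in Metrn cKO and 21.1 and 81.0 FPKM in Metrn f/f. Cdkn2c, which encodes p18Ink4c and restrains stem cell division in mice, had 40.3 and 17.5 FPKM in Metrn cKO and 14.1 and 27.4 FPKM in Metrn f/f. Both were high in the libraries rich in neutrophil, B cell, erythroid and macrophage transcripts, and the part of those cells in the levels was not tested.

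The pocket proteins were the least abundant family. Rbl2 had 11.1 and 20.7 FPKM in Metrn cKO and 21.3 and 6.51 FPKM in Metrn f/f, with the same order of libraries as Cdk6 within each genotype. Rb1, the retinoblastoma gene, had 9.79 and 6.88 FPKM in Metrn cKO and 8.36 and 5.58 FPKM in Metrn f/f. Its libraries spanned 1.75-fold and the groups overlapped.

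The genotype comparison asked whether LSK cells of Metrn cKO mice express G1 genes at other levels than those of Metrn f/f mice. None of the 10 members passed limma over the 13148 genes that reached 1 FPKM in 2 or more libraries (adjusted p = 1.00 for each), and no gene of the whole table did (0 higher and 0 lower, 0%). All 10 members passed the filter, each with more than 1 FPKM in every library. At an unadjusted p under 0.05, limma had 0 members and 39 genes (0.297%). With Metrn cKO 2 left out limma called 32 genes higher and 2 lower, and with Metrn cKO 1 left out 5 lower, none of them a member. Fold changes were taken from log2(FPKM + 1), where a positive value is higher in Metrn cKO. Ccnd1 averaged 10.1 ± 0.190 FPKM in Metrn cKO and 6.27 ± 2.16 in Metrn f/f (SD, n = 2 each), a log2 fold change of 0.65 with a standard error of 0.50 and a 95% interval of -0.55 to 1.84. Cdkn1b had the narrowest interval, -0.84 to 1.01 around 0.08, and Cdk6 the widest, -2.15 to 2.70 around 0.28. Cdk4 averaged 219 ± 5.16 FPKM in Metrn cKO and 283 ± 96.4 in Metrn f/f, and its interval ran from -1.51 to 0.86 around -0.32. Cdkn2c had a log2 fold change of 0.42 (interval -0.93 to 1.77) and Cdkn2d one of -0.11 (-1.92 to 1.69). The values were 0.34 for Ccnd2 and 0.35 for Ccnd3, and 0.23 for Rb1 and 0.32 for Rbl2, each with an interval that held 0. These intervals leave room for differences of more than 1 log2 unit in at least 1 direction for all 10 genes. The median over the members was 0.30, beside 0.07 over all tested genes.

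**Figure D2:**
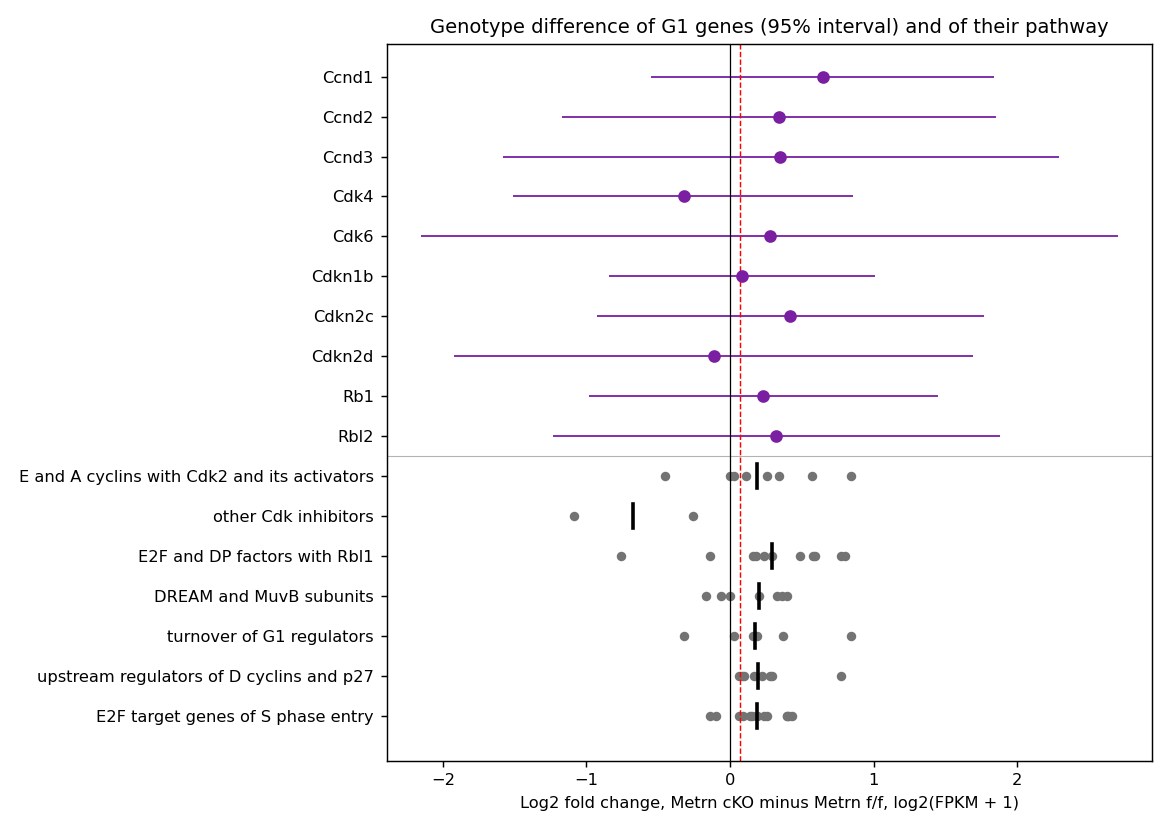
Log2 fold change of log2(FPKM + 1), Metrn cKO minus Metrn f/f (horizontal axis), for each of the 10 genes with limma's 95% interval (purple, above the grey line) and for the tested genes of 7 pathway lists (grey points, with a black tick at each list's median). The dashed red line is the median of all tested genes, 0.07, and all 10 purple intervals cross 0.

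Leaving out 1 library at a time moved most of these values across 0. Cdk6 was at -1.15 without Metrn f/f 2 and at 1.70 without Metrn f/f 1. Ccnd3 was at -0.69 without Metrn cKO 1 and at 1.40 without Metrn cKO 2. Ccnd1 kept its sign, between 0.34 without Metrn f/f 2 and 0.95 without Metrn f/f 1. For the libraries Metrn cKO 2 and Metrn f/f 1, poorest in mature cell transcripts, Ccnd1 had a log2 difference of 0.36, Ccnd2 of 0.29, Cdkn2c of 0.30 and Cdkn2d of 0.13. In the same pair Cdk6 was at -0.26 and Rb1 at -0.25, and Ccnd3, Cdk4, Cdkn1b and Rbl2 lay between -0.04 and 0.05. No member differed by 2-fold or more in that pair, as did 4.61% of tested genes. For Metrn cKO 1 and Metrn f/f 2, the pair rich in those transcripts, 1 member, Ccnd1, was at least 2-fold higher in Metrn cKO 1, as were 14.5% of tested genes. None was at least 2-fold lower, beside 9.51% of tested genes.

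Mice of the same genotype also differed from each other. The median size of the members' log2 difference was 1.00 between the Metrn cKO libraries and 1.11 between the Metrn f/f libraries, beside 0.49 and 0.75 over all tested genes. Ccnd3 was 4.30-fold higher in Metrn cKO 1 than in Metrn cKO 2 and 2.57-fold higher in Metrn f/f 2 than in Metrn f/f 1. Cdkn2d was 2.72-fold and 3.83-fold higher in the same libraries, and Cdkn2c 2.30-fold and 1.95-fold. Cdk6 went the other way, at 0.277 of Metrn cKO 2 in Metrn cKO 1 and 0.125 of Metrn f/f 1 in Metrn f/f 2. For Ccnd2 these ratios were 0.415 and 0.385, and for Rbl2 0.538 and 0.306. Between the Metrn cKO libraries 3 of the 10 members were at least 2-fold higher in Metrn cKO 1 (8.35% of tested genes) and 2 at least 2-fold lower (19.9%). Between the Metrn f/f libraries 2 members were at least 2-fold higher in Metrn f/f 2 (16.4% of tested genes) and 3 at least 2-fold lower (29.0%). Of the 10 members, 2 (Ccnd3 and Cdkn2d) were at least 2-fold higher in both Metrn cKO 1 and Metrn f/f 2, as were 5.88% of tested genes, and 2 (Ccnd2 and Cdk6) at least 2-fold lower in both, as were 13.7%. The difference had the same sign in both genotypes for 7 members, beside 75.7% of tested genes. The ratios of Ccnd3, Cdkn2d and Cdkn2c stayed above 1 and those of Cdk6, Ccnd2 and Rbl2 below 1 under both other scalings, with the smallest at 1.14 for Cdkn2c in Metrn f/f after rescaling to the same sum. Those of Cdkn1b did not, since they were 1.16 and 0.965 as deposited, 0.849 and 0.564 after rescaling, and 1.40 and 1.17 by the median of ratios.

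**Figure D3:**
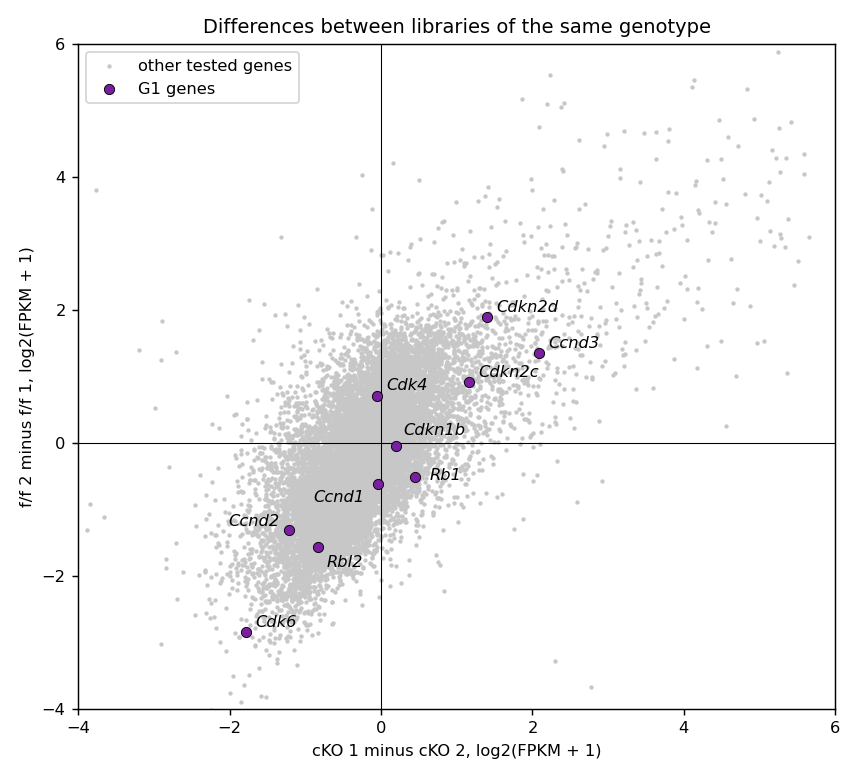
Differences of log2(FPKM + 1) between the 2 mice of a genotype, Metrn cKO 1 minus Metrn cKO 2 (horizontal) against Metrn f/f 2 minus Metrn f/f 1 (vertical), for the 10 genes (purple) and the other tested genes (grey), 39 of which lie outside the plotted range. Ccnd3, Cdkn2c and Cdkn2d lie at the upper right, Ccnd2, Cdk6 and Rbl2 at the lower left, and Cdkn1b near the origin.

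Shares within a family do not depend on how a library is scaled, and they are given without a test. Ccnd3 made up 93.4% and 63.8% of D cyclin FPKM in Metrn cKO 1 and 2, and 69.0% and 93.0% in Metrn f/f 1 and 2. Ccnd2 made up 3.99% and 28.2% in Metrn cKO and 24.5% and 4.93% in Metrn f/f. Cdk6 held 6.14% and 18.6% of the kinase FPKM in Metrn cKO and 22.2% and 2.13% in Metrn f/f, so Cdk4 was the main kinase transcript in all libraries. Ink4 transcripts of Cdkn2c and Cdkn2d together came to 45.0% and 14.9% of the Cdk4 and Cdk6 level in Metrn cKO, and to 12.8% and 30.2% in Metrn f/f. Rb1 took 46.9% and 25.0% of the Rb1 and Rbl2 FPKM in Metrn cKO and 28.2% and 46.2% in Metrn f/f. These shares were close in Metrn cKO 2 and Metrn f/f 1, and overlapped between genotypes. The exception was Cdkn2c, with 31.1% and 27.5% of the inhibitor FPKM in Metrn cKO and 23.9% and 20.9% in Metrn f/f, groups that did not overlap. With 2 libraries a group, an exact 2-sided permutation test cannot go below p = 0.333, and no other test of the shares was run.

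**Figure D4:**
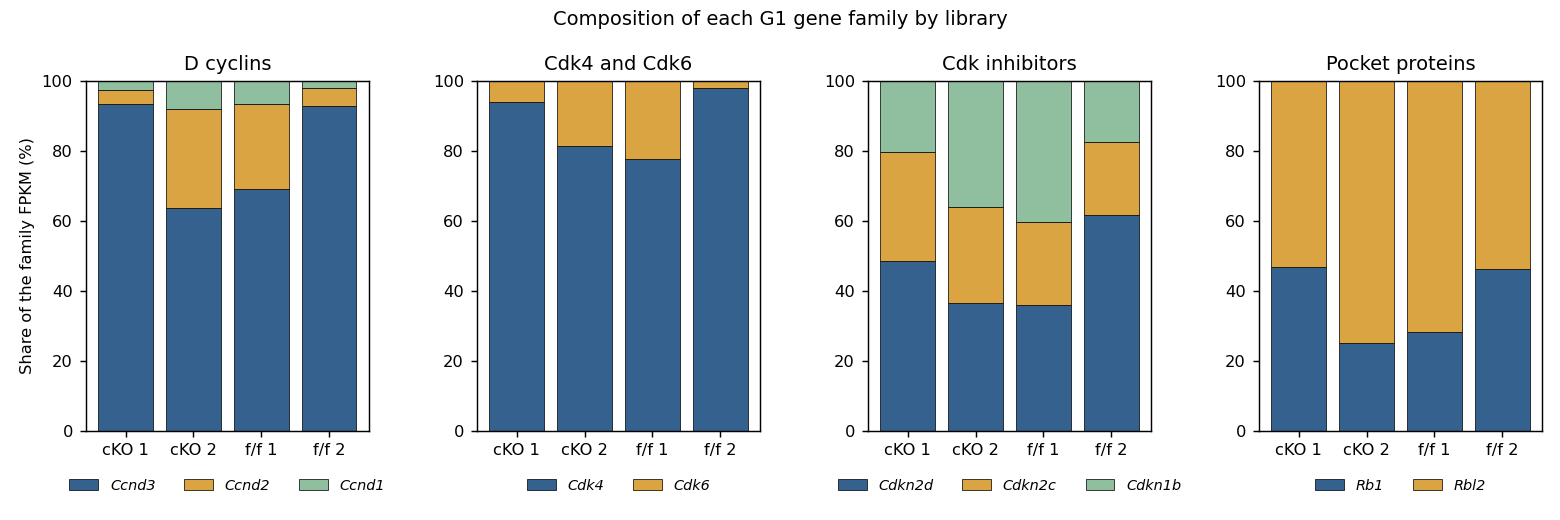
Share of each gene in its family's summed FPKM (vertical axis, percent) in the 4 libraries, Metrn cKO to the left of Metrn f/f. Ccnd3 takes 93.4% of D cyclin FPKM in Metrn cKO 1 and 93.0% in Metrn f/f 2, and Cdk6 and Rbl2 take larger shares in Metrn cKO 2 and Metrn f/f 1.

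The rest of the G1 pathway was read from the same fit, and 0 of its 56 tested genes passed in either direction. The E and A cyclins with Cdk2 and its activators had 3 of 8 genes for which each Metrn cKO library lay above each Metrn f/f library (Ccne2, Cdk2 and Cdc25a, beside 6.31% of tested genes) and 1 below (Mnat1, beside 5.73%), with a median log2 fold change of 0.19. Cdk2, the kinase of the step into S phase, averaged 63.5 ± 10.8 FPKM in Metrn cKO and 49.8 ± 5.08 in Metrn f/f, and Ccna2, its S phase cyclin, 53.9 ± 18.4 and 43.6 ± 5.66. Cdc25a, the phosphatase that activates Cdk2, had 39.1 and 23.0 FPKM in Metrn cKO and 22.2 and 12.0 FPKM in Metrn f/f (log2 fold change 0.84, SE 0.49). Mnat1, a subunit of the Cdk-activating kinase, had 7.60 and 9.33 FPKM in Metrn cKO and 11.7 and 12.1 FPKM in Metrn f/f.

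Of the 4 other Cdk inhibitors 2 were tested. Cdkn1a, the p53-induced inhibitor, had 13.5 and 11.9 FPKM in Metrn cKO and 19.7 and 40.2 FPKM in Metrn f/f. Its log2 fold change of -1.09 (SE 0.48) was the largest in size among these pathway genes and members, with an adjusted p of 1.00 by limma. Cdkn1c, the inhibitor known for stem cell quiescence, had 1.01 and 3.74 FPKM in Metrn cKO and 2.27 and 3.17 FPKM in Metrn f/f. Cdkn2a was listed at 0 in 3 libraries and at 0.105 FPKM in Metrn f/f 1, and Cdkn2b at 0.0986 FPKM in Metrn cKO 1 and at 0 in the others.

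E2F and DP factors with Rbl1 had a median log2 fold change of 0.29 over 11 genes, with 1 gene, E2f1, above in both Metrn cKO libraries (6.31% of tested genes) and 2, E2f4 and E2f5, below (5.73%). Tfdp1, the DP partner of E2F factors, averaged 111 ± 23.0 FPKM in Metrn cKO and 90.2 ± 7.99 in Metrn f/f, and E2f4, the repressor E2F that binds Rbl2, 45.2 ± 1.53 and 50.1 ± 0.148. E2f8, a repressor E2F that acts late in S phase, had a log2 fold change of 0.80 (SE 0.52) and E2f5 one of -0.76 (SE 0.54). The DREAM and MuvB subunits had 2 of 7 genes above in both Metrn cKO libraries, beside the same 6.31%, Lin9 (8.02 ± 0.429 and 6.02 ± 0.766 FPKM) and Mybl2 (22.9 ± 0.867 and 17.6 ± 6.23 FPKM), with 0 below and a median of 0.20. Rbbp4, a histone-binding subunit, averaged 71.0 ± 14.2 and 74.3 ± 17.0 FPKM, and Lin37 20.5 ± 0.0425 and 24.0 ± 9.17 FPKM. Among the genes for turnover of G1 regulators, 1 of 6, Skp2, which marks p27Kip1 for degradation, lay above (6.31% of tested genes), at 9.70 and 7.79 FPKM in Metrn cKO and 6.01 and 3.19 FPKM in Metrn f/f. Cks1b, the cofactor of Skp2, averaged 108 ± 16.1 FPKM in Metrn cKO and 141 ± 58.8 in Metrn f/f, and Fzr1, the Cdh1 activator of the anaphase-promoting complex, 44.6 ± 5.14 and 43.6 ± 1.23. The median of this list was 0.17.

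Upstream regulators of D cyclins and p27Kip1 were higher in Metrn cKO 2 than in Metrn cKO 1 and higher in Metrn f/f 1 than in Metrn f/f 2 in 7 of 8 genes. The exception was Foxo1, which lay above in both Metrn cKO libraries (5.95 and 4.27 FPKM, against 2.74 and 2.37 FPKM in Metrn f/f), beside 6.31% of tested genes. The differences within a genotype had the same sign in both genotypes for 75.7% of tested genes, but that share counts either direction. The share in this direction alone was not counted. The list's median log2 difference was -0.97 for Metrn cKO 1 minus Metrn cKO 2, beside -0.24 over all tested genes. For Metrn f/f 2 minus Metrn f/f 1 it was -1.08, beside -0.23. Myc had 49.1 and 106 FPKM in Metrn cKO and 107 and 43.9 FPKM in Metrn f/f. Cdk4, whose promoter window held the 4 E-boxes, was highest in Metrn f/f 2 as deposited. After rescaling to the same sum Cdk4 was highest in Metrn f/f 1. A link between the levels of Myc and Cdk4 was not tested. Stat5b had 23.4 and 48.0 FPKM in Metrn cKO and 47.6 and 15.5 FPKM in Metrn f/f. Within each genotype its libraries had the order of Ccnd2, Cdk6 and Rbl2, and a link to any of them was not tested. Bmi1, the Polycomb gene that represses Cdkn2a, had 11.2 and 17.3 FPKM in Metrn cKO and 16.4 and 7.78 FPKM in Metrn f/f. The list's median log2 fold change was 0.19. Of 14 E2F target genes of S phase entry, 2, Mcm5 and Cdc6, lay above (6.31% of tested genes) and 0 below (5.73%), with a median of 0.19. Pcna, the sliding clamp, averaged 320 ± 62.2 FPKM in Metrn cKO and 355 ± 141 in Metrn f/f, and the helicase gene Mcm7 160 ± 1.25 and 145 ± 22.0. Cdc6, a licensing factor, averaged 13.6 ± 1.57 and 9.86 ± 1.94 FPKM, and the helicase gene Mcm4 52.2 ± 2.52 and 40.8 ± 16.2.

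Likeness between genes was measured as the root mean square difference of log2(FPKM + 1), each gene centred on its mean over the 4 libraries, among 65 other member and pathway genes. For Rbl2 the nearest gene was Stat5b (0.06, beside a spread of 0.65 of Rbl2 itself), and for Ccnd2 it was Tfdp2 (0.07, beside 0.65), which had 5.44 and 14.7 FPKM in Metrn cKO and 12.9 and 4.20 FPKM in Metrn f/f. Ccne1, the cyclin partner of Cdk2, was nearest to Cdkn2c (0.17), Cdkn2d (0.32) and Ccnd3 (0.34), with 14.5 and 5.52 FPKM in Metrn cKO and 5.42 and 12.5 FPKM in Metrn f/f. Foxo3, a factor of stem cell maintenance, was nearest to Cdk6 (0.47, beside a spread of 1.20). Mybl2 was nearest to Ccnd1 (0.13, beside a spread of 0.39) and Lin37 to Cdk4 (0.08, beside 0.30). Tfdp1 was nearest to Rb1 (0.12, beside 0.27). Fzr1 was nearest to Cdkn1b (0.05), whose own spread was only 0.08. With 4 libraries such distances only describe these libraries.

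The genes were located in GENCODE M21 on GRCm38, and 7 of the 10 share exonic bases with a gene on the opposite strand. Ccnd1 (chromosome 7, 144929931 to 144939925) shares 1100 of its 4709 exonic bases with LTO1, which had 8.64 and 8.36 FPKM in Metrn cKO and 8.95 and 8.60 FPKM in Metrn f/f. Ccnd1 itself was at most 10.3 FPKM, and the strand setting is not given in the sources used here. Reads of the shared bases thus cannot be told apart, and the level of Ccnd1 is uncertain. Cdk4 (chromosome 10, 127063534 to 127067920) shares 641 of 3249 bases with Tspan31, which had 29.9 and 26.3 FPKM in Metrn cKO and 30.1 and 39.3 FPKM in Metrn f/f. Rb1 (chromosome 14, 73183673 to 73325822) shares 408 of its 6015 exonic bases with Lpar6 and 488 with Rcbtb2. Lpar6 and Rcbtb2 had 9.88 to 17.2 FPKM, levels above those of Rb1, so the level of Rb1 is uncertain too. Rbl2 (chromosome 8, 91070057 to 91123844) shares 693 of 7558 bases with Aktip, at 4.61 to 6.81 FPKM, and 892 with Gm45464, which is not analysed here. In Metrn f/f 2 Aktip had 6.81 FPKM and Rbl2 6.51 FPKM, so the level of Rbl2 is uncertain as well. For Ccnd3 (chromosome 17, 47505051 to 47599691) the shared part with Bysl is 361 of 8775 bases, and Bysl had 8.43 to 10.1 FPKM. Ccnd2 (chromosome 6, 127125162 to 127152193) and Cdk6 (chromosome 5, 3341485 to 3531008) overlap only antisense RNAs. Cdkn1b (chromosome 6, 134920401 to 134925513), Cdkn2c (chromosome 4, 109660876 to 109667189) and Cdkn2d (chromosome 9, 21288410 to 21291407) share no exonic base with another gene.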

How the data were processed

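RNA-seq libraries of total RNA from LSK cells sorted from 2 Metrn cKO and 2 Metrn f/f mice were made by standard Illumina procedures, per the labels' protocols. Per the submitters' processing notes, mm10 was the genome build, and the software comprised HISAT2 2.1, featureCounts 1.6.4, cutadapt 1.16.5, DESeq2 2.11.40.6 and bcl2fastq 2.19, with no role stated for any. The authors deposited 1 value per gene symbol and library, taken as FPKM because the values have decimals, are never negative and sum to a different total in each library. The file headers name only the library. Read totals are unknown, since 5.57% to 6.81% of low values of genes with 1 transcript lay within 0.02 of a whole multiple of the best step, beside 4.00% by chance, so no counting error is given.

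The 13148 genes that reached 1 FPKM in 2 or more libraries were compared on log2(FPKM + 1) with limma 3.58.1 in R 4.3.3 (intensity trend, 2-sided, Benjamini-Hochberg adjustment over all tested genes, threshold 0.05) and without rescaling. The test was checked on simulated data, where large changes had to be recovered. That requirement was set at the low spread between Metrn f/f 1 and Metrn cKO 2, the most alike libraries. It does not show what the test recovers at the spread within the real groups. Data at that spread were also simulated, with no recovery required, and their result is not reported here. Other pseudocounts, filters, scalings, a replicate block and leaving out each library were tried. The members and lists were chosen with earlier results of these data known. Named genes are the members and, in each pathway list, the 2 with the highest mean and the 2 with the smallest p.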

Additional observations from a re-analysis of the deposited data

How the results depend on the processing

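No member and no pathway gene was called under any alternative: a pseudocount of 0.1, no filter, at least 1 FPKM in all 4 libraries, rescaling to the same sum, median-of-ratios scaling, quantile normalization, no intensity trend, the replicate block and leaving out each library. Over all genes, limma called 0 to 32 genes higher and 0 to 5 lower with 1 library left out (32 higher and 2 lower without Metrn cKO 2, 5 lower without Metrn cKO 1), where the lone library is assumed to vary like the other group, and 0 higher and 0 lower under the other alternatives except the replicate block. The labels share replicate numbers but do not say that a number marks a shared litter or batch. With the replicate block 3 genes were called higher and 1 lower. The deviations of the libraries numbered 1 from their group means had a correlation of -0.708 over 13148 genes, so the numbers were not taken as pairs. Rescaling to the same sum moved the median log2 fold change of all genes to 0.15 (0.07 as deposited). Sign changes by scaling were Cdkn2d at 0.01 by quantile normalization, Rbbp4 at 0.03 by quantile normalization and by rescaling, Pcna at 0.03 by quantile normalization, and Fzr1 at -0.03 by the median of ratios. Leaving out 1 library changed the sign of these log2 fold changes, given as the range: Ccnd2 -0.31 to 0.99, Ccnd3 -0.69 to 1.40, Cdk4 -0.68 to 0.03, Cdk6 -1.15 to 1.70, Cdkn1b -0.02 to 0.18, Cdkn2c -0.16 to 1.00, Cdkn2d -1.06 to 0.83, Rb1 -0.02 to 0.49, Rbl2 -0.46 to 1.11, Ccna2 -0.09 to 0.61, Cdkn1c -0.87 to 0.36, Rbbp4 -0.29 to 0.17, Lin37 -0.55 to 0.21, Cks1b -0.75 to 0.12, Fzr1 -0.09 to 0.14, Myc -0.55 to 0.71, Stat5b -0.49 to 1.06, Bmi1 -0.22 to 0.77, Pcna -0.52 to 0.31, Mcm7 -0.01 to 0.30, Mcm4 -0.00 to 0.81 and Metrn -0.74 to 0.42. With Metrn f/f 2 and Metrn cKO 1 both left out, an alternative chosen after seeing the data and without a test, the signs of Ccnd3 (-0.01), Cdk4 (0.05), Cdk6 (-0.26), Cdkn1b (-0.04), Cdkn2d (0.13), Rb1 (-0.25) and Rbl2 (-0.04) changed. The cause was not tested. Read depth is unknown, and 2 mice a group limit every comparison.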
